A study of Canis lupus familiaris with 22 samples.

Results

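The mitochondrial respiratory chain was examined in the blood of dogs with canine atopic dermatitis (cAD), an inherited, itching inflammatory skin disease, as the messenger RNA of 50 genes named for subunits or associated proteins of its complexes. The genes were taken by symbol from the annotation of the array: every gene whose name begins with NDUFA, NDUFB, NDUFC, NDUFS, NDUFV, UQCR, COX4 to COX8 or ATP5, together with SDHA, SDHB, SDHC, SDHD and CYC1. They were 50 of the 34382 gene names on the array and were read by 78 of its 43603 gene probes, and all of them passed the filter on dim probes. By complex, 22 belonged to complex I, 3 to complex II, 4 to complex III, 6 to complex IV and 5 to complex V, and 10 were assembly factors or associated proteins. The symbols are those of the array design and are in part old, so that the α subunit of ATP synthase stands under ATP5A1.

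The groups compared were healthy dogs that received no immunotherapy (ctrl, n = 8), dogs with cAD before allergen-specific immunotherapy (0, n = 7), and the same 7 dogs after 6 months of it (6 months, n = 7). Allergen-specific immunotherapy (ASIT) is a course of subcutaneous injections of extracts of the allergens to which a dog reacts. The dogs were adults of several breeds and both sexes. Those with cAD were privately owned, and the healthy ones were blood donors of a veterinary blood bank. Breed and sex were not balanced between healthy and atopic dogs, and no untreated atopic dogs were followed over the same 6 months. Each array held the RNA of 1 dog, labelled red (Cy5), against a shared reference pooled from the blood RNA of 13 other healthy dogs and labelled green (Cy3). Every value below is a log2 ratio of dog to reference, so that 0 is the level of the pool and 1 is a doubling, and a difference is the mean log2 ratio of one group minus that of another. The replicates are separate dogs in ctrl and 0, while 0 and 6 months share their dogs.

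The control arrays lay on slides of their own and were scanned on a day of their own. Slide, scan day and group thus cannot be told apart in a comparison with ctrl. On average 88.4% of probes stood well above background in Cy5 in ctrl (83.7 to 92.3%), against 64.9% before ASIT (53.3 to 87.5%) and 66.3% after it (57.2 to 81.6%), and the part of this share in the differences from ctrl was not tested. Of the 50 genes, 46 had every probe well above background in Cy5 on all 22 arrays. NDUFAF4 had 1 probe that was so on all 22 and another on 20. The dim genes were NDUFA1, COX5A and NDUFA4L2. NDUFA1 was well above background on 8 ctrl arrays but on 2 before and 2 after ASIT, and COX5A and NDUFA4L2 on 8, 1 and 2. The labels call the material whole blood while the methods name peripheral blood nuclear cells. Marker genes of neutrophils (10 measured), monocytes (6), T cells (7), B cells (6), red cell precursors (5) and platelets (5) were all read on these arrays. In such bulk RNA, fewer cells of a type and less RNA per cell cannot be told apart.

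The respiratory chain sits in the inner membrane of mitochondria. Complex I takes electrons from NADH and complex II, which is also an enzyme of the citric acid cycle, takes them from succinate. Complex III passes them to cytochrome c, complex IV passes them on to oxygen, and the proton gradient made on the way drives ATP synthesis by complex V. Most subunits are encoded in the nucleus and imported, but a few of the membrane core are encoded by the mitochondrion's own genome. Blood cell types differ widely in their mitochondria: lymphocytes and monocytes respire, neutrophils rely mainly on glycolysis, platelets carry mitochondria without a nucleus, and red cell precursors need mitochondria to make haem and lose them as they mature.

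The probes of the genes on which the results turn are printed here so that each measurement can be traced to the transcript it reads. All are 60 bases long, and the 78 probes hold 35 to 60% G and C. Positions are those the array's files give on the canFam3.1 build. 13 of the 78 match 2 separated stretches of the genome, as a probe across a splice junction does. The exon or UTR of each was not looked up here. NDUFS3, a core subunit of the arm of complex I that reaches into the matrix, has one probe at chr18:42069627-42070903 and another at chr18:42070955-42071149, both on the minus strand. CYC1, the haem-carrying cytochrome c1 of complex III, has a pair at chr13:37592434-37592493 and chr13:37592828-37592965 on the plus strand. They are shown because the probes of each gene share no bases and their ratios moved together. NDUFA7 (chr20:52897591-52901862, minus strand), an accessory subunit of complex I, and ATP5S (chr8:26770855-26770914, plus strand), a factor associated with ATP synthase, are shown because they were among the genes that followed the red cell markers. NDUFB10 (chr6:38969802-38969861, minus strand), an accessory subunit in the membrane arm of complex I, is shown because it stood lower in both cAD groups than in ctrl on the ratio scale, while in the red channel alone it did not before ASIT and differed by -0.0061 after it.
NDUFS3, first probe: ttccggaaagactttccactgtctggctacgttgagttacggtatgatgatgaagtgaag
NDUFS3, second probe: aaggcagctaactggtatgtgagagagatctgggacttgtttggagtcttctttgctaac
CYC1, first probe: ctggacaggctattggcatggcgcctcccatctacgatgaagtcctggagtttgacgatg
CYC1, second probe: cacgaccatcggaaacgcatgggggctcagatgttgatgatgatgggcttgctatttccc
NDUFA7: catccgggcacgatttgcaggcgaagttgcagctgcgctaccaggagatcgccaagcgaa
ATP5S: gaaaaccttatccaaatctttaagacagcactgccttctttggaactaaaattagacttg
NDUFB10: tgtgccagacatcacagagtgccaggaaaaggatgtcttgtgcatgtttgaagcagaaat

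The first comparison asked whether the respiratory chain differed between dogs with cAD before treatment and healthy dogs (0 vs. ctrl). None of the 50 genes passed an adjusted p of 0.05 with limma, and the smallest adjusted p was 0.178, for NDUFA5. Over all 29937 gene features tested, 0.0434% passed. At an unadjusted p under 0.05 there were 3 of 50 members, NDUFA5 and UQCR10 higher and NDUFB10 lower, against 12.5% of all features (3.93% higher and 8.55% lower). In the joint test over the 3 groups the same 3 genes were under 0.05 unadjusted, against 10.4% of all features, and none passed adjustment, against 0.00334%. The mean was higher before ASIT than in ctrl for 24 genes and lower for 26, with differences from -0.64 to 0.76. The low end is NDUFA1, and the 26 include the 3 dim genes, which passed the filter through their ctrl arrays. Of the others the lowest was NDUFB10 at -0.25. The median difference was -0.01, and that of all features was -0.02. The difference was smaller than 1.5-fold for 46 of 50 genes, as it was for 89.4% of all features, and for 36 genes the whole 95% interval lay within 1.5-fold.

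The second comparison set the dogs with cAD after ASIT against the healthy dogs (6 months vs. ctrl) and gave a like picture. No member passed adjustment (smallest adjusted p 0.682, limma), and neither did any other feature (0% of 29937). At an unadjusted p under 0.05 there were 7 of 50 members, against 7.16% of all features. NDUFA5, NDUFB8, UQCR10, ATP5SL and ATP5S were higher after ASIT and NDUFB10 was lower, where 4.27% of all features were higher and 2.89% lower. The remaining one, NDUFA1, is given no direction, since it was measured here only because its ctrl arrays passed the filter on dim probes, and with a filter that asks for all 22 arrays the count was 6. With the level of red cell precursor markers, described further on, as a covariate the count was 2, NDUFB10 and NDUFA1, and none of the 5 higher genes was among them. The count rested on single arrays: it fell to 1 without dog 7 after ASIT, to 2 without control 2, to 3 without dog 6 after ASIT and to 4 without control 4, control 5 or dog 2 after ASIT. The count of 3 in 0 vs. ctrl was as mobile, at 1 without control 2, control 5, dog 4 or dog 7 before ASIT, at 5 without control 1 and at 6 without dog 5 before ASIT. A random block for the slide left a count of 0 for 6 months vs. ctrl and of 1 for 0 vs. ctrl. The 2 comparisons share their ctrl arrays, so their values for a gene are not independent.

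The third comparison, 0 vs. 6 months, asked what changed in the same dogs in the course of ASIT, in a fit that does not pair their arrays. Each of dogs 1 to 3 had both arrays on 1 slide. In dogs 4 to 7 the arrays after ASIT lay on another slide, scanned on another day. Time, slide and scan day cannot be told apart in these dogs. No member passed adjustment (smallest adjusted p 0.818, limma) or an unadjusted p of 0.05, against 0% and 6.52% of all features (2.2% higher and 4.32% lower before ASIT). The differences ran from -0.38 to 0.29 with a median of -0.01 (all features -0.02). The low end and the smallest p both belong to COX5A, which was near background in these dogs and whose difference was -0.24 from processed signals, -0.04 with normexp and 0.44 in the red channel alone. The next lowest was NDUFS3 at -0.29. As deposited, all 50 were under 1.5-fold, as were 93.0% of all features. For 32 of the 50 the 95% interval excluded a 1.5-fold difference in either direction. For the other 18 the interval reached 1.5-fold.

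**Figure D1:**
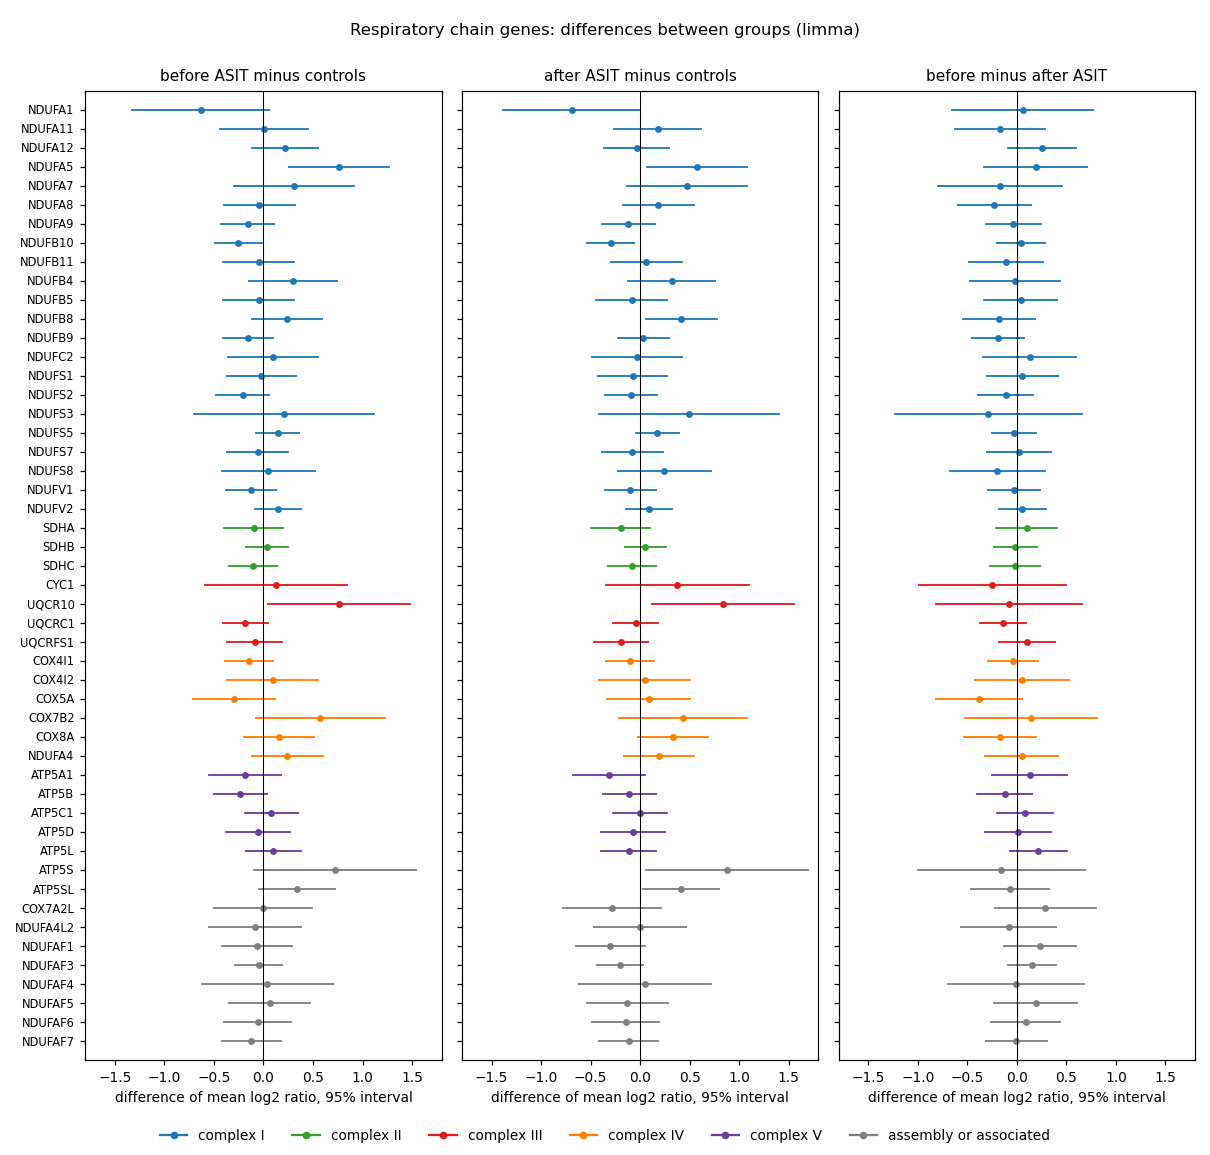
Difference of the mean log2 ratio (horizontal axis) for the respiratory chain genes, grouped by complex, in the 3 comparisons, each point a gene with its 95% interval from limma. NDUFA5, UQCR10 and ATP5S lie farthest to the right in the comparisons with ctrl, and NDUFA1, dim in the atopic dogs, farthest to the left, while all 50 genes lie within 1.5-fold of 0 in 0 vs. 6 months.

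In complex I the median difference from ctrl was -0.01 before and 0.05 after ASIT, and before minus after it was -0.03. The medians of complexes I to IV from ctrl changed sign under at least 1 alternative, so no direction is given for them. NDUFA5, an accessory subunit of the matrix arm, had the largest difference of complex I from ctrl in 0 vs. ctrl. Its log2 ratio ran from -0.92 over a median of -0.26 to 1.04 in ctrl, from 0.12 over 0.61 to 1.19 before ASIT, and from 0.00 over 0.40 to 1.04 after it. The groups overlapped: control 1 lay among the highest atopic dogs, and control 6, at 0.37, lay above several of the lower ones. The difference was 0.76 (SE 0.24, 95% interval 0.26 to 1.27, limma adjusted p = 0.178) in 0 vs. ctrl and 0.57 (SE 0.24, adjusted p = 0.682) in 6 months vs. ctrl. In the red channel alone NDUFA5 was higher by 0.71 in 0 vs. ctrl, with an adjusted p of 0.0388, where 23.2% of all features passed.

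NDUFB10 and NDUFB8 are both subunits of the membrane arm. NDUFB10 ran from -0.05 to 0.35 in ctrl (median 0.20), from -0.31 to 0.23 before ASIT (median -0.16) and from -0.25 to 0.01 after ASIT (median -0.14). Its spread was small, and the lower controls overlapped with the higher atopic dogs in both cAD groups. The difference was -0.25 (SE 0.12, limma adjusted p = 0.358) in 0 vs. ctrl and -0.30 (SE 0.12, adjusted p = 0.682) in 6 months vs. ctrl. This direction belongs to the ratio: in the red channel alone NDUFB10 stood 0.06 higher in 0 vs. ctrl. NDUFB8 had medians of -0.31 in ctrl, -0.16 before ASIT and 0.25 after it, and 6 months vs. ctrl differed by 0.42 (SE 0.17, adjusted p = 0.682), or by 0.18 in the red channel alone and 0.26 with the red cell marker level as a covariate.

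NDUFA1, a small subunit of the membrane arm, was dim in the atopic dogs. It ran from -0.37 to 0.47 in ctrl (median 0.05), from -1.19 to 0.82 before ASIT (median -0.77) and from -2.17 to 0.66 after ASIT (median -0.66). The difference was -0.64 (SE 0.33, limma adjusted p = 0.45) in 0 vs. ctrl and -0.69 (SE 0.33, adjusted p = 0.682) in 6 months vs. ctrl. The probe passed the filter on dim probes through the 8 ctrl arrays, and it was not well above background on 5 of 7 arrays in either cAD group, so these differences and their tests carry no weight and no direction is given for NDUFA1.

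**Figure D2:**
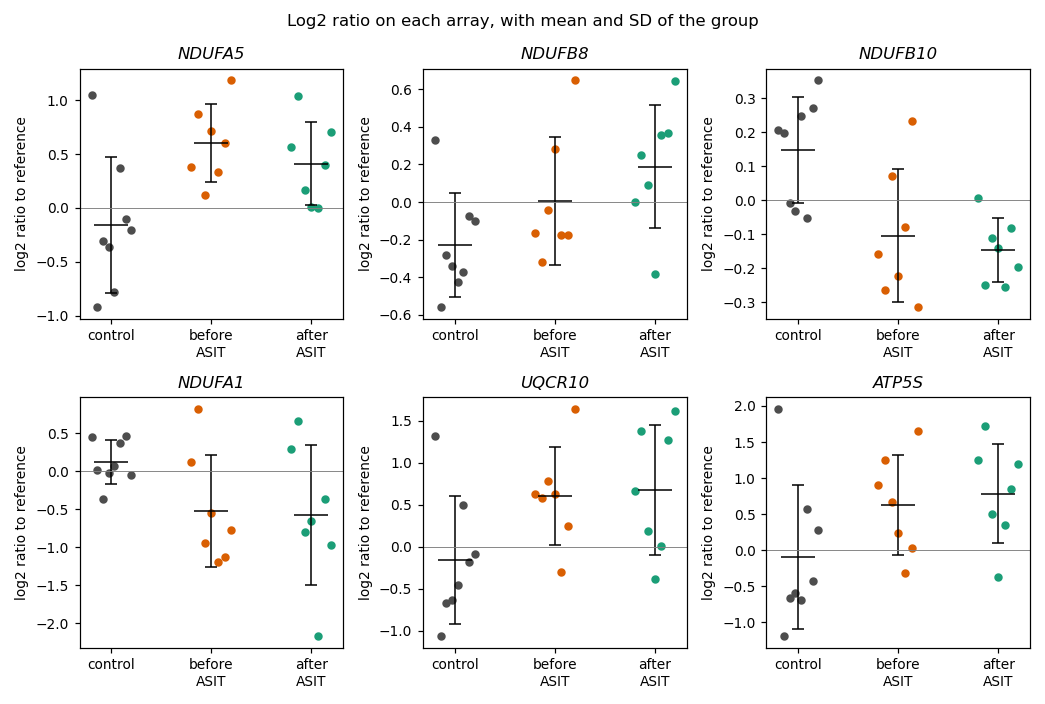
Log2 ratio of dog to reference on each array (vertical axis) for NDUFA5, NDUFB8, NDUFB10, NDUFA1, UQCR10 and ATP5S in controls, before ASIT and after ASIT, with the group mean and SD as bars. In every panel the groups overlap, and the highest control stands at 1.04 for NDUFA5, 1.32 for UQCR10 and 1.96 for ATP5S.

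Complex II, which holds the flavoprotein SDHA, the iron-sulfur subunit SDHB and the membrane anchor SDHC on this array, differed little. Median differences of the complex were -0.10 and -0.08 from ctrl, before and after ASIT, and -0.02 between them, and the first was 0.02 in the red channel alone and from the brightest probes. SDHA had medians of 0.13, 0.06 and 0.06 in ctrl, before and after ASIT, and differed by -0.20 (SE 0.14, limma adjusted p = 0.74) in 6 months vs. ctrl, which turned to 0.06 in the red channel alone. SDHB was the steadiest of the 50 genes, with a within-group SD of 0.102 and medians of 0.00, -0.00 and 0.03. Its 2 probes, however, shared almost no variation within groups, and their values differed from each other by up to 0.54 on an array. SDHC had medians of -0.18, -0.35 and -0.34, and its difference in 0 vs. ctrl was -0.10 (adjusted p = 0.781), or 0.02 from the brightest probe.

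Complex III held some of the steadiest and some of the most variable of the 50 genes. UQCR10, a small accessory subunit, ran from -1.06 to 1.32 in ctrl (median -0.32), from -0.30 to 1.64 before ASIT (median 0.63) and from -0.39 to 1.62 after ASIT (median 0.67). The groups overlapped over most of their range. The difference was 0.76 (SE 0.35, limma adjusted p = 0.357) in 0 vs. ctrl and 0.84 (SE 0.35, adjusted p = 0.682) in 6 months vs. ctrl. CYC1 ran from -0.47 to 1.57 in ctrl (median 0.15), had medians of 0.56 before and 1.04 after ASIT, and differed by 0.13 (SE 0.35) and 0.37 (SE 0.35) from ctrl, which turned to -0.15 and -0.16 with the red cell marker level as a covariate. UQCRFS1, the Rieske iron-sulfur protein, was within -0.50 to 0.33 on all arrays, and was higher before than after ASIT in 6 of 7 dogs by 0.11 on average.

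UQCRC1, a core subunit of complex III, was lower before ASIT than after it in each of the 7 dogs. It ran from -0.18 to 0.29 in ctrl (median 0.12), from -0.29 to -0.01 before ASIT (median -0.05) and from -0.05 to 0.11 after ASIT (median -0.01). The mean difference was -0.14 (SE 0.11, 95% interval -0.37 to 0.10), which did not pass in limma (adjusted p = 0.906), a fit that does not pair the dogs. The exact paired permutation test gave an unadjusted p = 0.0156 for it, the smallest that 7 pairs allow, as 1 of 23 named genes tested so. In the red channel alone the difference was -0.016. NDUFB9 of complex I, named here after its values were seen, was also lower before ASIT in all 7 dogs, by 0.19 on average. These 2 of 50 genes compare with 1% of all features that were lower before ASIT in all 7 dogs, and 0 members with 0.826% of features higher in all 7. For dogs 4 to 7 the slide and the scan day changed along with time.

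In complex IV the median difference was 0.13 in 0 vs. ctrl and 0.14 in 6 months vs. ctrl, but -0.16 and -0.11 in the red channel alone. It was 0.20 and 0.26 under the strict filter, which drops COX5A. COX4I1 and COX4I2 are alternative forms of the same regulatory subunit, the first used in most tissues and the second best known from lung. COX4I1 ran from -0.25 to 0.14 in ctrl, from -0.45 to 0.24 before ASIT and from -0.32 to -0.03 after ASIT. Its differences from ctrl were -0.15 (SE 0.12, limma adjusted p = 0.666) and -0.10. COX4I2 had medians of 0.21, 0.20 and 0.41, and its difference of 0.09 in 0 vs. ctrl changed sign in the red channel alone (-0.80), without dog 7 before ASIT (-0.03) and with another background correction (-0.03). COX5A, a matrix-side subunit, was well above background on 1 of 7 arrays before and 2 of 7 after ASIT, and 5 of its values, 4 of them after ASIT, are listed as exactly 0, so its levels in dogs with cAD are not measured ones. Among the 6, COX7B2, a form known from testis, had the largest difference in 0 vs. ctrl, 0.58 (SE 0.31, adjusted p = 0.473), which was -0.23 in the red channel alone. COX8A differed by 0.16 and 0.33 from ctrl, and NDUFA4, a complex IV subunit despite its symbol, by 0.24 and 0.19, with no adjusted p below 0.62. In the red channel alone COX8A differed by 0.12 and 0.0087 and NDUFA4 by 0.19 and -0.064, and with the red cell marker level as a covariate COX8A differed by 0.04 and 0.10.

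Complex V, the ATP synthase, had median differences from ctrl of -0.06 before and -0.11 after ASIT, and one of 0.08 in 0 vs. 6 months. ATP5B, the catalytic β subunit, had medians of 0.09, -0.09 and 0.08 and differed by -0.24 (SE 0.13, limma adjusted p = 0.479) in 0 vs. ctrl, but by -0.019 in the red channel alone. ATP5A1, the α subunit, had medians of -0.17, -0.22 and -0.41 and differed by -0.32 (SE 0.18, adjusted p = 0.685) in 6 months vs. ctrl. ATP5C1, the γ subunit of the rotor, had medians of 0.01, 0.04 and -0.03, and ATP5L, a membrane subunit, medians of -0.02, 0.14 and -0.17. For all 5 subunits the 95% interval of the difference in 0 vs. ctrl lay within 1.5-fold.

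The 10 assembly factors and associated proteins had median differences of -0.03, -0.12 and 0.04 in the 3 comparisons. ATP5S ran from -1.19 to 1.96 in ctrl (median -0.51), from -0.31 to 1.65 before ASIT (median 0.67) and from -0.37 to 1.73 after ASIT (median 0.85). Both the lowest and the highest of all 22 values were thus controls. The difference was 0.72 (SE 0.39, limma adjusted p = 0.473) in 0 vs. ctrl and 0.88 (SE 0.39, adjusted p = 0.682) in 6 months vs. ctrl. ATP5SL, which despite its symbol takes part in the assembly of complex I, differed by 0.34 and 0.41 (SE 0.18 each). Its 2 probes gave 0.05 and 0.62 in 0 vs. ctrl and were up to 1.38 apart on an array, so the gene's mean covers probes that disagree.

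A few respiratory chain genes varied far more between the arrays of a group than the rest did. With 1 array per dog in a group, dog and array cannot be told apart in this spread. The median SD within groups was 0.313 for the members and 0.456 for all features. NDUFS3 (0.920), ATP5S (0.821), CYC1 (0.720) and UQCR10 (0.712) varied most, and SDHB (0.102), NDUFS5 (0.118) and UQCRC1 (0.135) least. NDUFS3, named here after its values were seen, ran from -1.40 to 1.71 in ctrl, from -1.22 to 1.44 before ASIT and from -1.16 to 1.62 after ASIT, a range that was as wide among healthy as among atopic dogs. Its 2 probes differed by 0.04 ± 0.08 (SD over 22 arrays) and at most by 0.17, and those of CYC1 by 0.12 ± 0.04.

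The marker genes of red cell precursors were set beside these genes. The list used here names 8 genes, of which 5 were on the array: ALAS2, the first enzyme of haem synthesis in these cells, the membrane proteins SLC4A1 and EPB42, the α-globin chaperone AHSP, and the carbonic anhydrase CA1. CA1 ran only from -0.40 to 0.64 over the 22 arrays and was at its highest in control 5, where the other four were below 0, while SLC4A1 ran from -0.96 to 1.58 and AHSP from -2.51 to 1.30. Their mean log2 ratio, the erythroid marker level, was -0.15 ± 0.66 (SD, n = 8) in ctrl, 0.14 ± 0.70 (n = 7) before ASIT and 0.42 ± 0.65 (n = 7) after ASIT. It ran from -1.19 to 0.82 in ctrl and from -1.12 to 0.89 before ASIT. The groups differed by 0.29 in 0 vs. ctrl and by 0.57 in 6 months vs. ctrl, with exact permutation p = 0.419 and p = 0.119.

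A slope on the erythroid marker level, with the group as a term, was fitted with limma over the 15 arrays of ctrl and of dogs before ASIT. It is the change in a gene's log2 ratio for each unit of the marker level within a group. Of the 50 members, 13 rose with the marker level at an adjusted p under 0.05, against 8.83% of all features, and 0 fell, against 3.34%. The steepest were NDUFS3 at 1.33 (SE 0.10), ATP5S at 1.14 (SE 0.17), UQCR10 at 0.90 (SE 0.13), CYC1 at 0.88 (SE 0.15), COX7B2 at 0.81 (SE 0.13) and NDUFA7 at 0.79 (SE 0.12). NDUFS8, NDUFA11, NDUFC2, COX8A, COX4I2, NDUFB11 and ATP5SL rose by 0.32 to 0.52 per unit, and NDUFA5, at 0.51 (SE 0.16), just missed the threshold with a limma adjusted p of 0.0506. By complex, 6 of 22 rose in complex I, 0 of 3 in complex II, 2 of 4 in complex III, 3 of 6 in complex IV, 0 of 5 in complex V and 2 of 10 among associated proteins. The members that rose had a median within-group SD of 0.443 and the others one of 0.257. A slope on a level that varies within groups adds to this SD, so it is not a separate result.

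**Figure D3:**
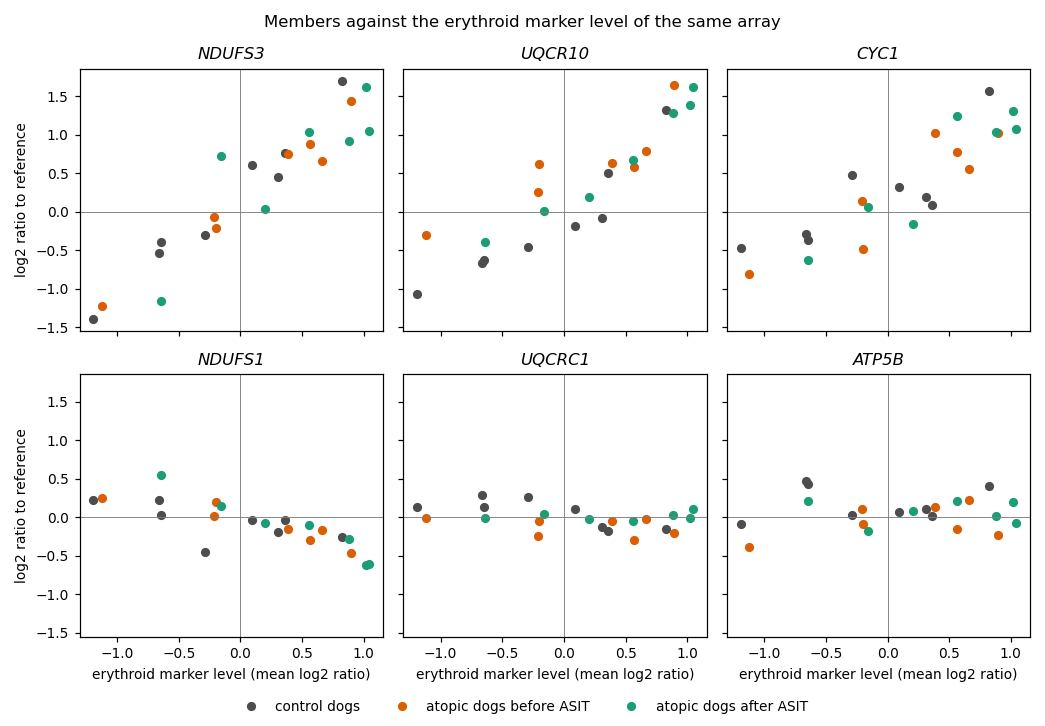
Log2 ratio of respiratory chain genes (vertical axis) against the erythroid marker level of the same array (horizontal axis, mean log2 ratio of 5 marker genes), with a point for each of the 22 arrays coloured by group. NDUFS3, UQCR10 and CYC1 in the upper row climb with the marker level in each of the 3 groups, while in the lower row NDUFS1 falls with it, by 0.37 per unit over all 22 arrays, and UQCRC1 and ATP5B show no call in either direction.

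The slope was then examined on arrays and in blocks that the first fit had not used. On the 7 arrays after ASIT, which come from dogs already in the fit, all 13 genes again had a positive slope, as had 97.8% of all features that rose. NDUFS3 stood at 1.21, UQCR10 at 1.17 and CYC1 at 1.12 there. With the slide as a fixed block, 13 members rose (7.27% of all features) and 0 fell (2.48%), but not the same 13. NDUFB11 (limma adjusted p = 0.0808) and ATP5SL (0.0656) no longer passed, and NDUFA5 (0.0264) and NDUFB4 (0.0304) did. The slopes of NDUFB11 and ATP5SL were both 0.32 within slides, where the first fit gave 0.37 and 0.32. Over all 22 arrays 15 rose (14.7%) and 5 fell (13.4%), namely COX7A2L (-0.44), NDUFS1 (-0.37), ATP5A1 (-0.32), NDUFAF1 (-0.29) and NDUFAF7 (-0.22). That fit holds both arrays of each atopic dog without a term for the dog, and none of these 5 passed over the 15 arrays or within slides. The count of 13 fell to 6 without dog 5 before ASIT. Across genes the slope also went with the G and C content of the probe, with r = 0.286 over all 29937 features and r = 0.231 over the members, which are not independent replicates. The part of base composition in the slopes was not tested.

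**Figure D4:**
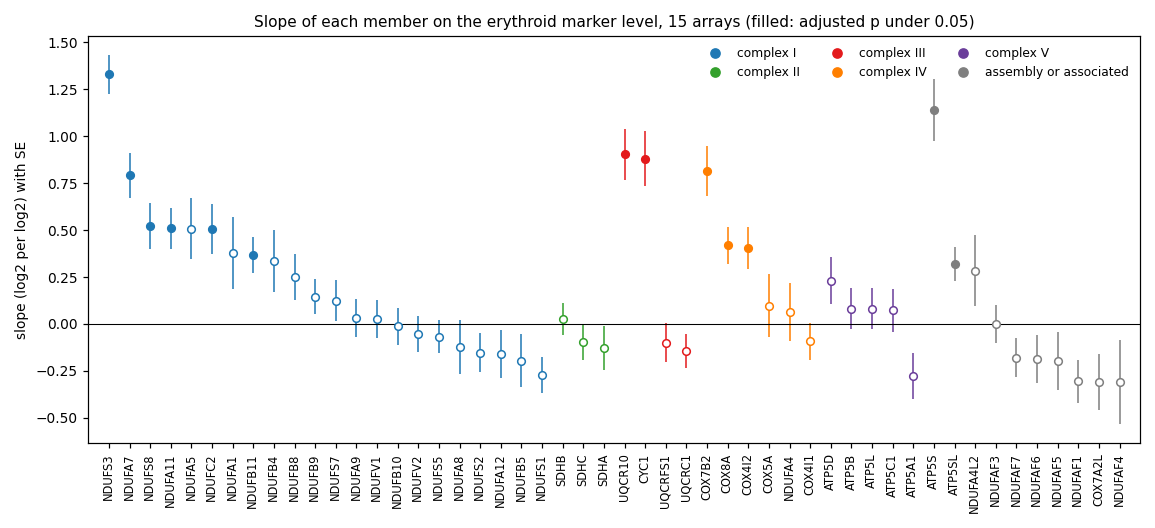
Slope of each respiratory chain gene on the erythroid marker level (log2 ratio per unit of the marker level), grouped by complex, from the fit over 15 arrays. NDUFS3 at 1.33 and ATP5S at 1.14 stand apart, no gene of complex II or V was among the 13 that rose, and none fell at an adjusted p under 0.05.

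Entering the marker level as a covariate moved the group differences of these genes unequally. In 0 vs. ctrl, UQCR10 went from 0.76 to 0.48, ATP5S from 0.72 to 0.41 and NDUFS3 from 0.21 to -0.17. NDUFA5 went from 0.76 to 0.61, and NDUFB10 kept -0.25. In 6 months vs. ctrl the same step took UQCR10 from 0.84 to 0.28, ATP5S from 0.88 to 0.26 and NDUFA5 from 0.57 to 0.28. COX7B2 went from 0.43 to -0.05 there, NDUFS3 from 0.49 to -0.24, CYC1 from 0.37 to -0.16 and NDUFB10 from -0.30 to -0.29. No member passed adjustment in that fit, in which 145 features (0.484%) did in 0 vs. ctrl. The limma adjusted p in 0 vs. ctrl went from 0.357 to 0.136 for UQCR10 and from 0.178 to 0.107 for NDUFA5. At an unadjusted p under 0.05 there were 4 members in that comparison, against 15.6% of all features. They were NDUFA5, UQCR10, NDUFB10 and the dim NDUFA1.

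Other mitochondrial gene lists were set beside the respiratory chain, for which the shares over all features are again 8.83% rising and 3.34% falling. No gene of 18 enzymes of the citric acid cycle and pyruvate dehydrogenase rose with the marker level, nor did any of 10 regulators of mitochondrial biogenesis. Of 25 assembly factors outside the rule 1 rose, of 62 mitochondrial ribosomal proteins 3, of 58 cytosolic ribosomal proteins 1, of 16 glycolytic enzymes 0, and of 18 electron carriers and transporters 1, while 1 of the glycolytic enzymes and 1 of the carriers fell. In 0 vs. ctrl none of these lists held a gene past adjustment. At an unadjusted p under 0.05, where 3.93% of all features were higher and 8.55% lower, the citric acid cycle had 0 higher and 1 lower, the assembly factors 1 and 2, mitochondrial ribosomal proteins 2 and 2, and glycolysis 0 and 0. Cytosolic ribosomal proteins had 12 higher and 0 lower of 58 with a median difference of 0.19. In 6 months vs. ctrl, where the shares were 4.27% and 2.89%, the citric acid cycle had 0 higher and 2 lower with a median difference of -0.19, mitochondrial ribosomal proteins 1 and 5 with -0.09, and cytosolic ribosomal proteins 2 and 0 with 0.02.

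The subunits encoded by the mitochondrial genome are not among the 50 genes but complete the same complexes, and their values are set beside the nuclear ones. 12 of them were on the array (13 probes, well above background on all 22 arrays), a list chosen after its values were seen. In both comparisons with ctrl, all 12 had lower means in the dogs with cAD, with a median difference of -0.37 before and -0.37 after ASIT, where the nuclear members had -0.01 and -0.02. The 12 are not separate observations: their mean pairwise r across arrays within groups was 0.40, and that of all features 0.00297, as a description over 22 arrays that they share. None passed adjustment. At an unadjusted p under 0.05 there were 5 of 12 in 0 vs. ctrl, where 8.55% of all features were lower, and 3 of 12 in 6 months vs. ctrl, where 2.89% were. The 5 were ND4 at -0.75 (SE 0.21, limma adjusted p = 0.135), COX3 at -0.72, ND2 at -0.70, ND1 at -0.61 and ATP6 at -0.36. ND4 averaged -0.06 ± 0.46 in ctrl (SD, n = 8), -0.82 ± 0.47 before ASIT and -0.54 ± 0.21 after it (n = 7 each). The other complex I genes of the mitochondrial genome had smaller differences in 0 vs. ctrl, down to -0.04 for ND6.

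How far this holds depends on the channel. In the red channel alone, 8 of the 12 were lower in 0 vs. ctrl, with a median of -0.20, and 10 of 12 in 6 months vs. ctrl, with 1 passing adjustment in each, where 23.2% and 16.8% of all features passed. ND1 stood 0.03 and 0.19 higher there. With normexp, 11 of 12 were lower in 0 vs. ctrl. With a random block for the slide, all 12 stayed lower, 5 at an unadjusted p under 0.05 in 0 vs. ctrl and 0 in 6 months vs. ctrl. No slide held both ctrl and cAD arrays, so this block cannot take a slide effect out of these differences. Of the platelet markers, 5 of 5 measured were lower in 0 vs. ctrl, 2 of them at an unadjusted p under 0.05. Their median difference was -0.55. In 6 months vs. ctrl 5 of 5 were lower, 0 of them under 0.05, with a median of -0.12 where the 12 genes had -0.37. The platelet marker level was on average 0.14 ± 0.46 in ctrl (-0.76 to 0.74), -0.36 ± 0.55 before ASIT (-1.13 to 0.34) and -0.06 ± 0.46 after it (-0.87 to 0.59). In the same 2 comparisons the median difference was 0.15 and -0.25 for T cell markers and -0.04 and -0.22 for B cell markers. It was 0.14 and -0.28 for cytotoxic cell markers, -0.11 and -0.01 for monocyte markers and -0.0027 and 0.03 for neutrophil markers. The part of any cell type in the difference was not tested. Between 0 and 6 months the 12 genes had a median difference of -0.01, with 5 higher and 7 lower before ASIT. The platelet markers had one of -0.36.

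**Figure D5:**
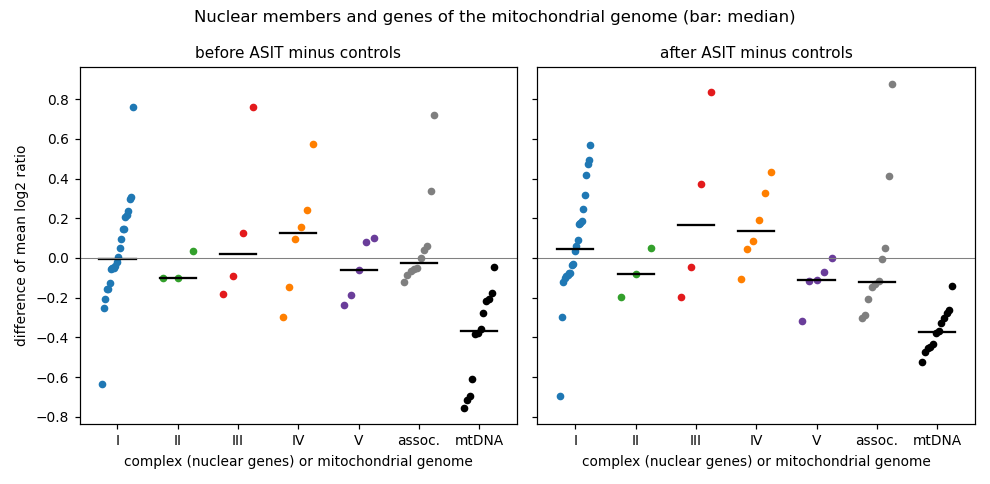
Difference of the mean log2 ratio (vertical axis) for the nuclear respiratory chain genes by complex and for the 12 genes of the mitochondrial genome, before ASIT (left) and after ASIT (right) minus controls, each point a gene and each bar a median. All 12 mitochondrial genome genes lie below 0, with a median of -0.37 in both panels. The nuclear complexes lie on both sides of 0, except the 5 genes of complex V, which all lie below it in the right panel.

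Several genes were read by more than 1 probe, which gives the agreement within a gene. 28 of the 50 had 1 probe, 16 had 2 and 6 had 3. The probes of UQCR10 differed by -0.15 ± 0.12 (SD over 22 arrays) and at most by 0.33. In COX4I1, 2 probes that overlap by 54 bases differed by 0.04 ± 0.03, while the third gave a difference of -0.37 in 0 vs. ctrl where the gene's mean gave -0.15. The probes of NDUFAF4, an assembly factor of complex I, were up to 1.82 apart, and one of them cleared the background on only 20 of the 22 arrays.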

How the data were processed

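Total RNA of 22 blood samples was read on 2-colour Agilent canine arrays (Cy5 dog, Cy3 reference, no dye swap). The authors deposited scanner output with raw and processed intensity per spot and the log10 ratio of Cy5 to Cy3 that Feature Extraction wrote after background subtraction and Lowess normalization. The software is version 10.7.3.1 per the labels and 10.10.1.1 per the file headers. A deposited series matrix equals those ratios for the 14 cAD arrays, while its ctrl columns correlate with them at r = 0.711 to 0.844, so it served as an alternative.

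The deposited log10 ratios were converted to log2, 208 flagged spots and the control spots were left out, and probes with Cy5 well above background on 7 or more arrays were averaged per gene name. The groups were compared with limma 3.58.1 (R 4.3.3, data.table version 1.17.8) over all 22 arrays without a block, as the methods name none, with Benjamini-Hochberg adjustment over all 29937 features. The erythroid marker level and the named genes were compared with exact two-sided permutation tests. The script was tested on simulated data. Figures were drawn with Python 3.11.15 and matplotlib 3.10.9.

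The text names the 4 subunits of each complex with the smallest p over the 3 groups, the 2 such associated proteins, any gene past adjustment and the isoforms of complex IV and V. Further genes are named for their slope, their probes or, where so stated, after their values were seen. The members, lists and tests were chosen with earlier results of these data known. 1 further erythroid marker is not reported here, and all counts and levels of these markers are without it. The slope on the erythroid markers, the marker level as a covariate, the scan-day block and the mitochondrial genome list were added after seeing the data. Alternatives were normexp (offset 50) with loess, processed signals, the series matrix, Cy5 alone, no filter, a strict filter (all 22 arrays), a CV limit of 75% and the brightest probe. Further ones were the methods' one-way test, the dog as a block, slide blocks, a scan-day block and each array left out. The same number marks the same dog before and after ASIT, and the deviations of its 2 arrays correlated at r = -0.04 to 0.56 over all features. Precision is limited by the number of arrays.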

Additional observations from a re-analysis of the deposited data

Results flagged for a closer look

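Among 75 groups of values, 3 held an array far from the others, judged by its gap to the nearest array against the range of the group, and chance flags about 1 in 20 groups. CYC1 stood at 1.57 in control 1, where the next highest control was at 0.48. COX8A stood at -0.36 in dog 4 after ASIT, where the next lowest was at 0.14. The median of the 50 respiratory chain genes stood at 0.18 in dog 4 before ASIT, where the next was at 0.01.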

How the results depend on the processing

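No member passed adjustment under any alternative except the red channel alone, which gave 2 over the 3 groups, 3 in 0 vs. ctrl (NDUFA5, NDUFA1, COX4I2) and 2 in 6 months vs. ctrl (NDUFA1, ATP5SL), where 23.2% and 16.8% of all features passed in those comparisons. NDUFA1 was near background in both cAD groups. That channel also gave 5 members at an unadjusted p under 0.05 in 0 vs. ctrl, medians of complex IV of -0.16 and -0.11 against ctrl, and a members' median of 0.085 in 0 vs. 6 months. It reversed NDUFB10 (0.062), COX7B2 (-0.23) and COX4I2 (-0.80) in 0 vs. ctrl, SDHA (0.055) and SDHB (-0.067) in 6 months vs. ctrl, and COX5A (0.44) in 0 vs. 6 months. COX4I2 also reversed in 0 vs. ctrl with normexp and loess (-0.028), with the erythroid covariate (-0.045) and without dog 7 before ASIT (-0.028, the lowest with 1 array left out, up to 0.19 without dog 4). SDHC reversed with the brightest probe (0.016, 0 vs. ctrl), and CYC1 with the erythroid covariate (-0.16, 6 months vs. ctrl). That covariate also turned CYC1 (-0.15) in 0 vs. ctrl, COX7B2 (-0.048) in 6 months vs. ctrl and NDUFS3 (-0.17 and -0.24) in both, which the tally below leaves out. The cause of these changes was not tested. Of the differences chosen for each named gene, 664 kept direction and side of the threshold, 11 reversed and 3 passed it.

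At an unadjusted p under 0.05, 0 vs. ctrl held 5 members with the brightest probe. It held 1 with the slide as a random block and 4 with the erythroid covariate. In 6 months vs. ctrl there were 4 with the methods' one-way test, 0 with that slide block and 2 with the covariate. The covariate gave 1 in 0 vs. 6 months. Leaving out 1 array gave 1 to 6 in 0 vs. ctrl, 1 to 10 in 6 months vs. ctrl and 0 to 1 in 0 vs. 6 months (1 without dog 3 after ASIT). The slope fit gave 6 to 14 rising (6 without dog 5 before ASIT) and 0 to 1 falling members (1 without control 5), with 2 falling under the strict filter and 5 over all 22 arrays.

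With the dog as a replicate block, which pairs the arrays before and after ASIT, 0 members passed either threshold in 0 vs. 6 months and their median was -0.01. In dogs 1 to 3, whose paired arrays lay on the same slide, it was -0.05. The block changed no call. With the slide or the scan day as a fixed block, 0 members passed either threshold in 0 vs. 6 months as well. Slide and scan day cannot be told apart from ctrl, and NDUFA1, COX5A and NDUFA4L2 were dim in Cy5.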
